A study of Mus musculus with 12 samples.

Results

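The genes described here are the 4 globin genes of adult mouse hemoglobin, Hba-a1, Hba-a2, Hbb-bs and Hbb-bt, and Alas2, the heme synthesis enzyme of red cell precursors. They were taken by symbol from the 31208 genes counted in the brains of 12 mice, and all 5 were found. Transcripts were read by nanopore sequencing of PCR-amplified full-length cDNA. The animals were C57BL/6 mice aged 8 weeks, with no altered allele named, in 3 groups of 4. Sham mice had no occlusion, and their labels name no injection. The ischemia + vehicle mice received saline into the cerebral ventricle the day before occlusion of the left middle cerebral artery, and the ischemia + lactate mice received lactate (D-lactate in the methods, lactate in the labels) by the same route and on the same schedule. Brains of both ischemia groups were collected at 6 h of ischemia. Brains were removed and frozen, and no flushing of the vessels is described for the sequenced mice.

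Hemoglobin carries oxygen in red cells as a tetramer of alpha chains (Hba genes) and beta chains (Hbb genes), each holding a heme. Mature mammalian red cells have no nucleus, and the globin mRNA in blood is left over from their precursors and is richest in reticulocytes, the youngest circulating red cells. Alas2 makes the first committed step of heme synthesis in erythroid cells, while its relative Alas1 does so in other tissues. Globin transcripts have also been described in some neurons and glia, so a globin count in brain does not name its cell of origin. In RNA from whole tissue, fewer cells of a type and less RNA per cell cannot be told apart.

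The genes lie in 2 globin clusters and on the X chromosome (GRCm38, GENCODE M21). Hba-a1 is at chr11:32283511-32284465 and Hba-a2 at chr11:32296489-32297298, both on the plus strand. Hbb-bs is at chr7:103826534-103828096 and Hbb-bt at chr7:103812524-103813996, both on the minus strand. Alas2 is at chrX:150547375-150570638 on the plus strand. Each globin gene has 3 exons and Alas2 has 11. The annotated mRNAs are 699 nt for Hba-a1, 554 nt for Hba-a2, 628 nt for Hbb-bs, 703 nt for Hbb-bt and 2037 nt for Alas2. The authors kept reads of at least 500 bp, a limit not far below the length of the globin mRNAs.

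The copies within each globin pair are almost the same sequence, which matters for reading their counts separately. The 429-nt coding sequences of Hba-a1 and Hba-a2 differ at a single base, C381T (Hba-a1 base first, counted from the A of the start codon), and have 99.8% identity. The first 74 bases of their 3′ UTRs are equal at 74 of 74 positions. The 444-nt coding sequences of Hbb-bs and Hbb-bt also differ at 1 base, C417T (Hbb-bs base first), but here only 46 of 131 bases of the 3′ UTRs are equal without gaps. The stretches around these single differing bases, shown in capitals, are all that separates the copies within their coding sequences (GENCODE M21, 41 bases each, 5′ to 3′).
Hba-a1: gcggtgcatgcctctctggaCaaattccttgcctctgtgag
Hba-a2: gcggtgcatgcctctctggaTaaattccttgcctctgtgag
Hbb-bs: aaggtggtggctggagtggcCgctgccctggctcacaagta
Hbb-bt: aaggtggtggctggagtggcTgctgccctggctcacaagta
In the sequence compared here, Hbb-bs and Hbb-bt can be told apart by their 3′ ends, whereas the split between Hba-a1 and Hba-a2 rests on 1 base. The values of Hba-a1 and Hba-a2 as separate genes are uncertain for this reason.

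The promoters are shown as a description of the genes, and a link between them and the levels was not tested. They are the 250 bases before the RefSeq start of each gene (GRCm38.p6), with capitals for GATAA (the core bound by GATA factors), CACCC (bound by Krüppel-like factors), CCAAT and TATAA, searched on both strands. The Hba-a2 window is chr11:32296242-32296491, and the promoter tables of Hba-a1 and Hba-a2 are equal at 297 of 297 aligned bases, so Hba-a2 stands for both. The other windows are chr7:103827929-103828178 for Hbb-bs and chr7:103813924-103814173 for Hbb-bt, both on the minus strand, and chrX:150547167-150547416 for Alas2. The GENCODE start of each gene lies inside its window, so the windows overlap the gene positions given above.
Hba-a2: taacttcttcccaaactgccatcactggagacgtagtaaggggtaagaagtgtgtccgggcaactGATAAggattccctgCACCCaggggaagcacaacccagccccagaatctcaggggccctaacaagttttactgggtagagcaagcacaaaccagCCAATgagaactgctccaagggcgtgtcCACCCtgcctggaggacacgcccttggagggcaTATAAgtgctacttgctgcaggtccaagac
Hbb-bs: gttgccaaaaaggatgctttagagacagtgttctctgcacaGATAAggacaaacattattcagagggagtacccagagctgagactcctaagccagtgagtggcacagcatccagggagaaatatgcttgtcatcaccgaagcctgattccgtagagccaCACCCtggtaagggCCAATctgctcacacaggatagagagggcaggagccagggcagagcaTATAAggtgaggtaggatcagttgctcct
Hbb-bt: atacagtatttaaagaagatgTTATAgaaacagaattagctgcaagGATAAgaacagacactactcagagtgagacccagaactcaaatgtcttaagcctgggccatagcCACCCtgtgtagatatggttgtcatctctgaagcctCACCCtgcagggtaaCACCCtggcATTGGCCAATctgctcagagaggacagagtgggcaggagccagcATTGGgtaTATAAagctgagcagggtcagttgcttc
Alas2: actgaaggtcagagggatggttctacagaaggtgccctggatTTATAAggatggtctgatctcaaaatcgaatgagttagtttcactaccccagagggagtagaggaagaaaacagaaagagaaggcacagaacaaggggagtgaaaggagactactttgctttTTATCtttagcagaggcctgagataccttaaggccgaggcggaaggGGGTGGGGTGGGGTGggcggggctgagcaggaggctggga
Each of the 5 windows holds GATAA 1 time and CACCC 1 to 3 times. Of 32851 mouse promoter windows of this length, 22.6% hold GATAA, 52.0% hold CACCC, 33.8% hold CCAAT and 22.8% hold TATAA. The 4 globin windows hold CCAAT and TATAA as well, and the Alas2 window holds TATAA but has no CCAAT. In Alas2 the TATAA matches on opposite strands overlap in the same 6 bases. These matches are descriptions of letters and do not show binding.

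Total counts per mouse ranged from 6815920 to 10677224, so that 3 counts, taken as the floor of detection, equal 0.281 to 0.440 CPM (a count relative to the total of its own mouse). Floors cover counting error only. Neuron markers (5 of 5 detected, summed level 3128 to 4954 CPM) and oligodendrocyte markers were high in every mouse, as the brain label requires. Some markers of other brain cells differed between groups. Gfap, the astrocyte filament protein, rose from 52.4 ± 16.4 CPM in sham to 159 ± 76.2 with vehicle and 283 ± 37.7 with lactate, and the summed level of the 5 astrocyte markers was 184 to 260, 241 to 403 and 399 to 485 CPM. The other 4 astrocyte markers were not called, and the list medians of the log2 fold change were 0.08 with vehicle and -0.07 with lactate. The microglial receptor Cx3cr1 fell with vehicle (10.9 ± 2.53 against 25.8 ± 6.87 CPM), and the 5 microglia markers summed to 202 to 215 CPM in sham, 118 to 195 with vehicle and 185 to 206 with lactate. The part of these cells in the globin values was not tested. One mouse stood apart. The ischemia + vehicle mouse 2 carried 1841 CPM of 5 choroid plexus markers, mostly Ttr, against 1.22 to 18.6 CPM in the other 11 mice. Of the red cell markers outside the 5 genes, Slc4a1, the anion exchanger of the red cell membrane, had at most 1 count and was at 0 in 9 mice, and Hemgn, an erythroid nuclear protein, had 1 count in 1 mouse. The reading of the 4 globin genes as a measure of red cells could therefore not be checked against these markers at this depth.

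The alpha globin genes were lower in every ischemic mouse than in every sham mouse. Hba-a1 was at 195, 170, 172 and 170 CPM in sham mice 1 to 4, at 100.03, 147, 126 and 135 CPM in ischemia + vehicle mice 1 to 4, and at 155, 130, 112 and 116 CPM in ischemia + lactate mice 1 to 4. The highest ischemic mouse, ischemia + lactate 1, stayed under the lowest sham mouse. Hba-a2 was at 205, 180, 183 and 178 CPM in sham, at 104, 157, 134 and 140 CPM with vehicle, and at 162, 133, 119 and 120 CPM with lactate. Its order of mice was nearly that of Hba-a1, with ischemia + vehicle mouse 1 lowest of all 12 and ischemia + lactate mouse 1 highest among the ischemic mice.

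The beta globin genes showed the same separation from sham. Hbb-bs was at 187, 190, 172 and 167 CPM in sham, at 106, 163, 127 and 136 CPM with vehicle, and at 148, 129, 119 and 128 CPM with lactate. Here ischemia + vehicle mouse 2 came within 4 CPM of sham mouse 4. Hbb-bt, the less abundant beta gene, was at 44.0, 38.8, 43.7 and 44.8 CPM in sham, at 22.3, 32.2, 26.5 and 27.6 CPM with vehicle, and at 33.8, 26.5, 24.4 and 25.2 CPM with lactate. Its gap between sham and the ischemic mice was the widest of the 4 genes in relation to its level.

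Alas2 was near the limit of detection, with 3 to 16 counts per mouse. It was at 1.98, 1.45, 1.22 and 1.60 CPM in sham, at 0.56, 1.68, 1.99 and 1.03 CPM with vehicle, and at 0.41, 1.20, 0.66 and 0.93 CPM with lactate. The vehicle mice spanned the whole sham range, while all 4 lactate mice were below all 4 sham mice. Counting error alone gives a coefficient of variation of 28.8% in the sham group at these counts, against 20.3% measured. The vehicle mice spread more widely than counting error (48.9% against 33.5%), and the lactate mice did not (42.8% against 43.5%).

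**Figure D1:**
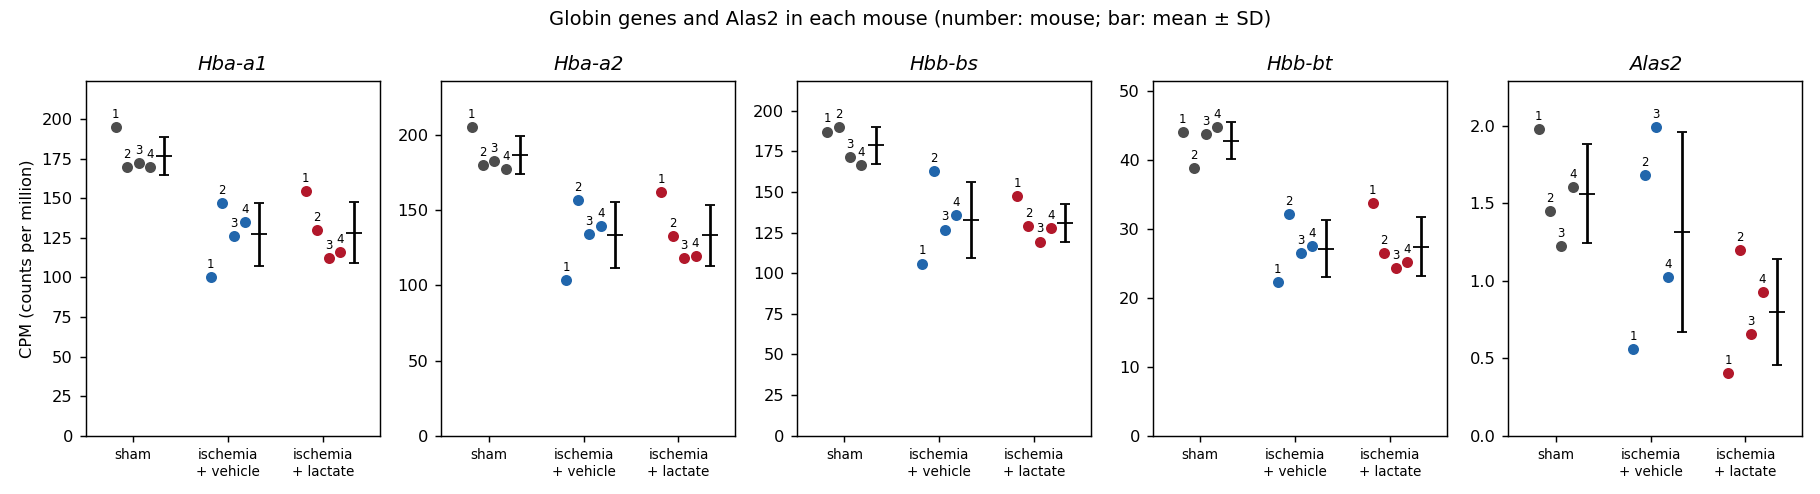
Level of each gene in CPM (y axis, from 0, with its own scale per gene) in each mouse of the 3 groups (x axis). Points are mice, labelled by number, and bars are the mean ± SD of 4 mice. For the 4 globin genes all 8 ischemic mice sit below the 4 sham mice, whereas Alas2 overlaps between sham and vehicle.

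Summed over the 4 globin genes, sham mice had 631, 578, 570 and 559 CPM, vehicle mice 332, 499, 414 and 438 CPM, and lactate mice 498, 418, 375 and 388 CPM. Globin reads thus made up 0.0559% to 0.0631% of all counts in sham mice and 0.0332% to 0.0499% in ischemic mice. The spread between mice was wider in the ischemic groups. For Hba-a1 the coefficient of variation was 6.90% in sham, 15.8% with vehicle and 15.1% with lactate, where counting error would give 2.67% to 3.15%. Hbb-bt in sham (6.37%) was close to its counting error of 5.41%.

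Per kilobase of annotated mRNA, the order of levels in sham was Hba-a2 (337 ± 22.8 CPM per kb, SD, n = 4), Hbb-bs (285 ± 18.1), Hba-a1 (253 ± 17.4), Hbb-bt (60.9 ± 3.88) and Alas2 (0.767 ± 0.156). The same order held in both ischemic groups. In sham the ranges of the neighbours Hbb-bs and Hba-a1 overlapped, and in both ischemic groups Hba-a2, Hbb-bs and Hba-a1 each overlapped with the next. Hbb-bt was below these 3 and above Alas2 without overlap in all 3 groups. The order of Hba-a2, Hbb-bs and Hba-a1 depends on the annotated lengths. In CPM not divided by length, their sham ranges overlapped, at 178 to 205, 167 to 190 and 170 to 195 CPM. The reads were of full-length cDNA, and whether counts rose with transcript length was not tested.

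The comparison of ischemia + vehicle with sham concerns 6 h of ischemia. Occlusion and the injection into the ventricle cannot be told apart in it, as the sham labels name no injection. The mean level differed from sham by -28.0% for Hba-a1 (127 ± 20.03 against 177 ± 12.2 CPM, SD, n = 4 each), -28.4% for Hba-a2 (134 ± 22.03 against 186 ± 12.7), -25.7% for Hbb-bs (133 ± 23.5 against 179 ± 11.4) and -36.6% for Hbb-bt (27.2 ± 4.09 against 42.8 ± 2.73). None of the 5 genes passed an adjusted p of 0.05 in edgeR's quasi-likelihood test with Benjamini-Hochberg adjustment, where 0.182% of 17019 genes tested were called lower. The log2 fold changes in that fit were -0.44 for Hba-a1 (SE 0.14, adjusted p = 0.178), -0.45 for Hba-a2 (SE 0.14, adjusted p = 0.175), -0.39 for Hbb-bs (SE 0.14, adjusted p = 0.253) and -0.62 for Hbb-bt (SE 0.15, adjusted p = 0.0750). Alas2 was at 1.32 ± 0.644 CPM against 1.56 ± 0.318, a log2 fold change of -0.23 (SE 0.40, edgeR adjusted p = 0.855).

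Before adjustment, 4 of the 5 genes had a p under 0.05 in the direction of lower levels with vehicle, beside 5.21% of all genes. DESeq2's Wald test called 1 of them, Hbb-bt, with an adjusted p of 0.00730, where DESeq2 called 0.453% of 17008 genes lower, and an unadjusted edgeR p under 0.05 together with a fold change of at least 1.5 also held for Hbb-bt alone, beside 3.01% of all genes. The groups did not overlap for the 4 globin genes, which was so for 4.89% of all genes in this direction. A two-sided exact permutation test of log2(CPM + 1) gave p = 0.0286 for each of these 4 genes, the smallest value that 4 against 4 mice allow, and p = 0.514 for Alas2. Leaving out ischemia + vehicle mice 1 and 2, the lowest and highest for globin and the latter the one with choroid plexus markers, gave log2 fold changes of -0.40 for Hba-a1, -0.41 for Hba-a2, -0.41 for Hbb-bs and -0.63 for Hbb-bt, with no gene called.

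The comparison of ischemia + lactate with the same 4 sham mice gave nearly the same differences with smaller standard errors. Means differed from sham by -27.4% for Hba-a1 (128 ± 19.3 CPM), -28.5% for Hba-a2 (133 ± 20.3), -26.8% for Hbb-bs (131 ± 11.9) and -35.9% for Hbb-bt (27.5 ± 4.32). All 4 globin genes fell at an adjusted p under 0.05 in edgeR's quasi-likelihood test, and Alas2 did not pass, so 4 of 5 genes were called lower where 3.55% of 17262 genes were. The log2 fold changes were -0.43 for Hba-a1 (SE 0.11, edgeR adjusted p = 0.0267), -0.45 for Hba-a2 (SE 0.11, 0.0209), -0.42 for Hbb-bs (SE 0.10, 0.0171) and -0.61 for Hbb-bt (SE 0.13, 0.0109). Alas2 was at 0.798 ± 0.341 CPM, a difference of -49.0% from sham, with a log2 fold change of -0.91 (SE 0.37, edgeR adjusted p = 0.133).

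All 5 genes had no overlap between lactate and sham mice, as did 8.74% of all genes in this direction, and the exact permutation p was 0.0286 for each. Of the 4 calls, 3 were lost when certain mice were left out. Hba-a1 was not called without sham mouse 1 (edgeR adjusted p = 0.0717), sham mouse 3 (0.0565), sham mouse 4 (0.0519), or lactate mouse 2 (0.0570), 3 (0.0871) or 4 (0.0751). Hba-a2 was not called without sham mouse 1 (0.0585), lactate mouse 3 (0.0698) or lactate mouse 4 (0.0611), and Hbb-bs not without lactate mouse 3 (0.0596). Hbb-bt was called in each of these refits, with adjusted p from 0.00559 to 0.0366. In a single fit of all 12 mice, only Hbb-bt of the 5 was called. An unadjusted p under 0.05 with a fold change of at least 1.5 held for Hbb-bt, beside 5.65% of all genes, and for Alas2. Alas2 passed the filter on low counts only through the sham mice, where it was high, and had 3 to 10 counts with lactate. DESeq2's Wald test gave it an unadjusted p of 0.0823. Its place in this rule and among the genes without overlap is therefore a description.

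No difference in the globin genes was detected between lactate and vehicle. The log2 fold change of lactate against vehicle was -0.01 for Hba-a1 (95% confidence interval -0.34 to 0.33), -0.02 for Hba-a2 (-0.36 to 0.32), -0.04 for Hbb-bs (-0.36 to 0.28) and -0.00 for Hbb-bt (-0.38 to 0.37). For all 4 genes the differences from sham given above lie below the lower end of these intervals. The mean of Alas2 differed by -39.4% between lactate and vehicle, a log2 fold change of -0.69 with an interval of -1.73 to 0.35 (edgeR adjusted p = 0.700). No gene of the 5 was called by edgeR or DESeq2 and none had an unadjusted edgeR p under 0.05, which 3.93% of all genes had in the lower and 4.91% in the higher direction (2.47% and 3.76% with a fold change of at least 1.5). Calls were rare in this comparison, with 0.00574% of 17419 genes lower and 0% higher, and the groups overlapped for all 5 genes, where 1.83% of genes were lower without overlap. Exact permutation tests gave p from 0.257 (Alas2) to 1.0.

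**Figure D2:**
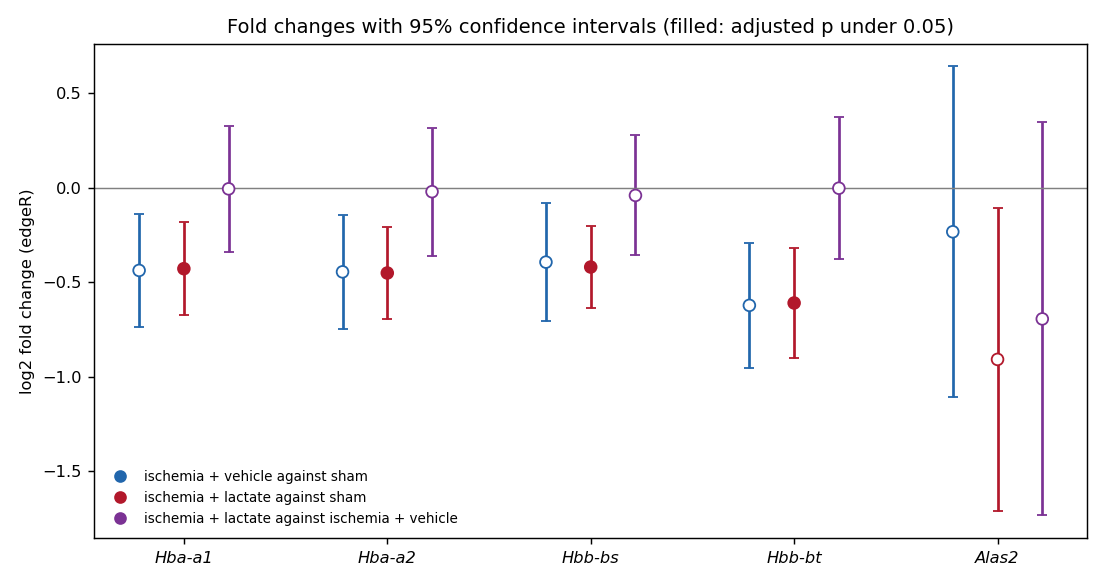
log2 fold change (y axis) of each gene (x axis) in the 3 comparisons, from edgeR fits of 4 against 4 mice, with 95% confidence intervals as bars. Filled points passed an adjusted p of 0.05, which only the 4 globin genes did, in lactate against sham. Both comparisons with sham use the same 4 sham mice.

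The globin genes kept close proportions to each other across mice. The ratio of Hba-a2 to Hba-a1 counts lay between 1.02 and 1.06 in all 12 mice. Its SD on the log2 scale was 0.0192, where independent counting of 2 genes at these levels would give 0.0602. The ratio thus varied between mice by less than independent counting would give, and the 2 alpha genes may not be independent measurements. They carry the near-identical sequences shown above, and how reads were divided between such copies is not stated.

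The ratio of Hbb-bs to Hbb-bt ranged from 3.72 to 5.07. In sham mice 1 to 4 it was 4.25, 4.89, 3.92 and 3.72, in vehicle mice 4.75, 5.04, 4.78 and 4.93, and in lactate mice 4.37, 4.86, 4.90 and 5.07. Of the 8 ischemic mice, 4 lay above all sham mice and 4 within the sham range, so the groups overlapped. The means were 4.20 ± 0.512 in sham, 4.88 ± 0.135 with vehicle and 4.80 ± 0.301 with lactate (SD, n = 4). The summed alpha counts stood to the summed beta counts at 1.53 to 1.75, with means of 1.64, 1.63 and 1.65 in sham, vehicle and lactate. The balance of alpha to beta transcripts therefore differed between groups by less than the SD between mice of one group (0.0687 to 0.0913), although the total was lower in both ischemic groups. Alas2 counts per 1000 globin counts ranged from 0.814 to 4.81 and overlapped between all groups.

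**Figure D3:**
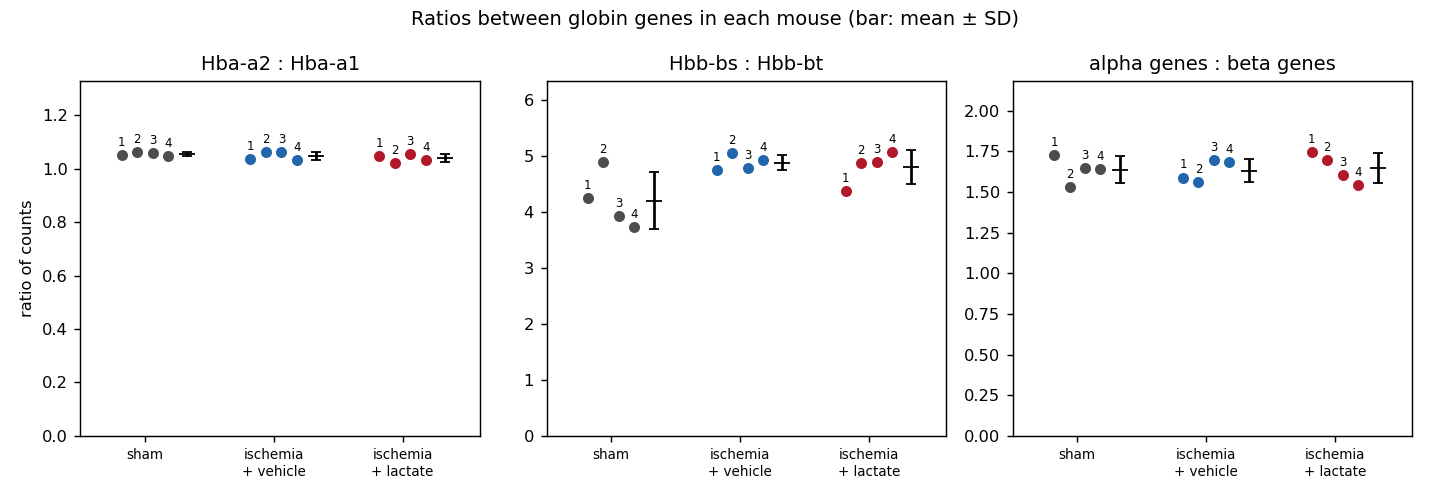
Ratios of counts (y axis, from 0) of Hba-a2 to Hba-a1, of Hbb-bs to Hbb-bt and of the summed alpha to the summed beta genes, per mouse and group (x axis). Points are mice and bars the mean ± SD of 4 mice. The alpha pair stays between 1.02 and 1.06, the beta pair is lower in 3 of 4 sham mice than in all 8 ischemic mice, and alpha to beta does not separate the groups.

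The other globins were at 0, near the floor of detection, or did not pass the test. The embryonic genes Hba-x, Hbb-y, Hbb-bh1 and Hbb-bh2 were at 0 in all 12 mice, which allows up to 0.281 to 0.440 CPM per mouse. Hbq1a and Hbq1b, the theta globin genes of the alpha cluster, had at most 11 counts in a mouse and were under the filter on low counts. Cygb (cytoglobin, a globin of fibroblast-like cells and some neurons) was at 97.6 ± 14.2 CPM in sham, 97.5 ± 30.3 with vehicle and 124 ± 14.003 with lactate. Ngb (neuroglobin, a globin of neurons) was at 6.22 ± 1.62, 6.54 ± 4.10 and 4.31 ± 1.36 CPM. Neither passed the test in any comparison, with edgeR adjusted p of 0.0874 for Cygb and 0.274 for Ngb in lactate against sham.

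Of the heme synthesis genes, 12 of 12 were tested and 0 were called by edgeR in any of the 3 comparisons. Over all genes, 1.29% were called higher and 0.182% lower with vehicle, and 8.76% and 3.55% with lactate, and a count of 0 of 12 is not far from these shares. Their median log2 fold change was 0.02 with vehicle and -0.08 with lactate against sham, beside 0.00 and -0.03 over all genes tested. Alas1, the enzyme of tissues outside the red cell lineage, was at 115 ± 32.7 CPM in sham, 128 ± 10.4 with vehicle and 137 ± 17.4 with lactate. Tmem14c, a mitochondrial porphyrin transporter needed in erythroid cells, was at 88.1 ± 4.60, 87.4 ± 17.8 and 79.6 ± 8.74 CPM.

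Of 34 genes listed for red cell membranes, red cell enzymes and erythroid regulation, 32 were in the table and 14 passed the filter in each comparison with sham. With vehicle 0 of 14 were called, and with lactate 2 of 14 fell and 0 rose, where 3.55% of all genes were called lower and 8.76% higher. These were Tfrc, the transferrin receptor (14.6 ± 2.88 CPM against 22.9 ± 2.56 in sham, log2 fold change -0.62, edgeR adjusted p = 0.0251), and Car2, a carbonic anhydrase of red cells and oligodendrocytes (148 ± 5.43 against 199 ± 17.5 CPM, log2 fold change -0.40, edgeR adjusted p = 0.0144). The oligodendrocyte genes Mog and Cnp also fell with lactate, at log2 fold changes of -0.60 and -0.53, and the part of other cells in the values of Car2 was not tested. The medians of the list were 0.03 with vehicle and -0.08 with lactate.

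Among genes that clear hemoglobin and heme and store their iron, Hmox1 was higher in both comparisons in which the globin genes were lower. Hmox1, the inducible heme oxygenase that breaks heme down, was at 1.37 ± 0.377 CPM in sham. It was at 7.31 ± 2.30 CPM with vehicle (log2 fold change 2.43) and 13.97 ± 2.01 with lactate (3.36). Its lowest sham mouse was at 0.951 CPM, so it passed the filter on low counts only with the help of the ischemic mice. These Hmox1 levels are therefore a description. Ftl1, the ferritin light chain, was higher with lactate (937 ± 55.1 against 739 ± 45.3 CPM, log2 fold change 0.38, edgeR adjusted p = 0.00957). Slc40a1, the iron exporter ferroportin, was lower with lactate (1.06 ± 0.470 against 2.62 ± 0.792 CPM, log2 fold change -1.28). The lactate mice were at 0.464 to 1.58 CPM, so it passed the filter only with the help of the sham mice, and its levels are also a description. Of this list, 13 genes were tested with vehicle and 12 with lactate against sham. Apart from Hmox1 and Slc40a1, only Ftl1 was called, with lactate. Over all genes, 1.29% were called higher and 0.182% lower with vehicle, and 8.76% higher and 3.55% lower with lactate. Cd163, the receptor of macrophages for hemoglobin bound to haptoglobin, was not called.

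Several neutrophil genes were higher in the ischemic groups. Of 14 neutrophil genes, most were under the filter on low counts, and S100a8, S100a9, Il1r2 and Retnlg passed it through the ischemic mice, so their values are given as a description, with no share of the tested genes. S100a8, an abundant neutrophil calcium-binding protein, was at 0.887 ± 0.341 CPM in sham, 18.5 ± 15.1 with vehicle and 12.5 ± 5.08 with lactate (SD, n = 4). Its partner S100a9 averaged 0.358, 14.3 and 9.70 CPM in the same order, the decoy receptor Il1r2 0.0608, 2.21 and 2.56 CPM, and Retnlg, a secreted protein of neutrophils, 0.132, 3.08 and 3.04 CPM. The neutrophil receptors Csf3r (1.73, 0.858 and 1.59 CPM) and Cxcr2 (2.66, 3.39 and 2.14 CPM) were not called in any comparison. Summed over the neutrophil list, sham mice had 3.90 to 8.04 CPM, vehicle mice 18.5, 61.3, 81.4 and 13.9 CPM, and lactate mice 29.9, 28.4, 48.9 and 23.9 CPM. This sum was above sham in all 8 ischemic mice, and S100a8 and S100a9 made up most of its difference.

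**Figure D4:**
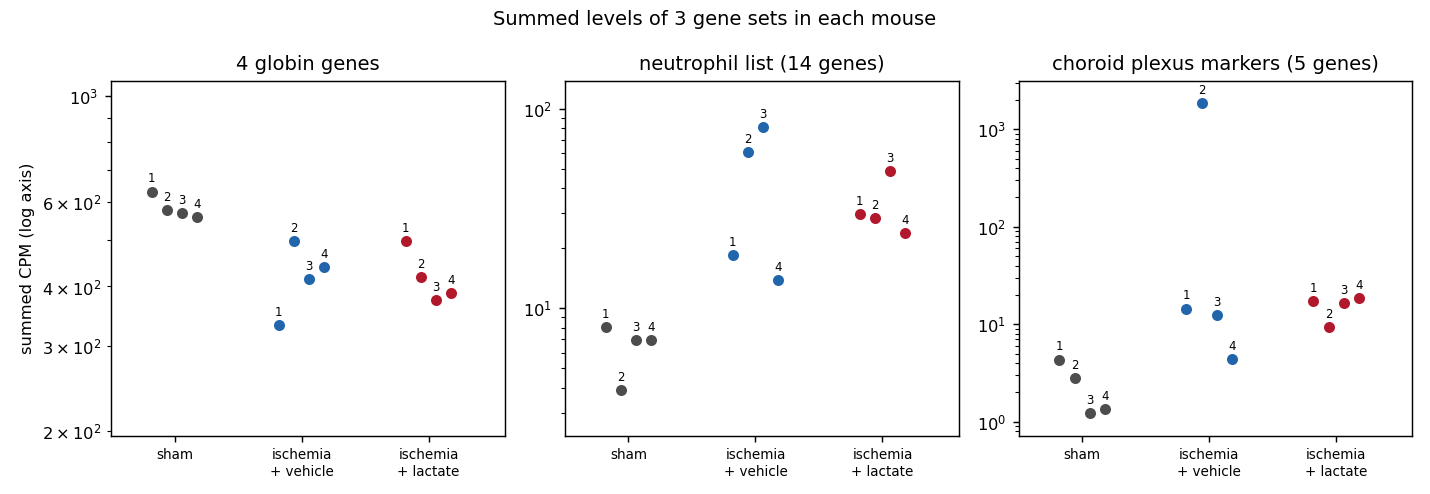
Summed CPM (y axes, logarithmic) of the 4 globin genes, of 14 neutrophil genes and of 5 choroid plexus markers in each mouse (points, numbered) of the 3 groups (x axis). Globin sums are lower and neutrophil sums higher in all 8 ischemic mice than in sham, and ischemia + vehicle mouse 2 reaches 1841 CPM of choroid plexus markers.

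Platelet genes were mostly under the filter, with 4 of 14 tested. Itga2b, the platelet integrin subunit CD41, was higher with lactate (9.55 ± 2.10 against 5.83 ± 1.34 CPM, log2 fold change 0.74, edgeR adjusted p = 0.0472). Pf4, a platelet chemokine that some macrophages also make, was at 3.83, 6.42 and 5.57 CPM in sham, vehicle and lactate without passing. The other 2 tested genes were not higher with lactate and were not called. Gp1bb, the most abundant of the list, was at 36.9, 49.7 and 35.3 CPM, and Vwf at 2.48, 2.34 and 1.78 CPM. The list summed to 42.7 to 56.0 CPM in sham, 49.4 to 111 with vehicle and 49.9 to 58.0 with lactate. With 4 genes tested, the 1 call is too few to set beside the share of all genes called. Of the monocyte and lymphocyte genes 2 passed the filter against sham, too few to set beside the share of all genes called, and neither was called, with Cd4 at 1.80, 1.57 and 3.71 CPM and Ly6c2 at 1.35, 1.73 and 2.14 CPM. Of 12 transcripts of plasma proteins made in liver, 4 passed the filter, and Alb had at most 1 count. Trf (transferrin, which oligodendrocytes make too) averaged 82.2, 60.6 and 87.5 CPM in sham, vehicle and lactate and was not called. Ttr, which the choroid plexus makes too, was at 1.48 ± 0.961 CPM in sham and 13.9 ± 4.06 with lactate, and since it passed the filter on low counts only with the help of the lactate mice, these levels are a description. With vehicle its values were 13.8, 1817, 11.95 and 2.64 CPM and it was not called.

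Of 16 endothelial and mural genes tested, 0 were called with vehicle, and with lactate 1 rose and 1 fell. That is close to the share of all genes called with lactate (8.76% higher, 3.55% lower). The list medians were -0.22 with vehicle and -0.30 with lactate. Ly6c1, an endothelial surface protein, rose (133 ± 25.1 against 74.7 ± 3.65 CPM, log2 fold change 0.86, edgeR adjusted p = 0.00136), and Slco1a4, an organic anion transporter of brain endothelium, fell (9.16 ± 3.43 against 30.5 ± 6.00 CPM, log2 fold change -1.70, edgeR adjusted p = 0.000726). The summed level of the list was 231 to 248 CPM in sham, 199 to 271 with vehicle and 237 to 284 with lactate.

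**Figure D5:**
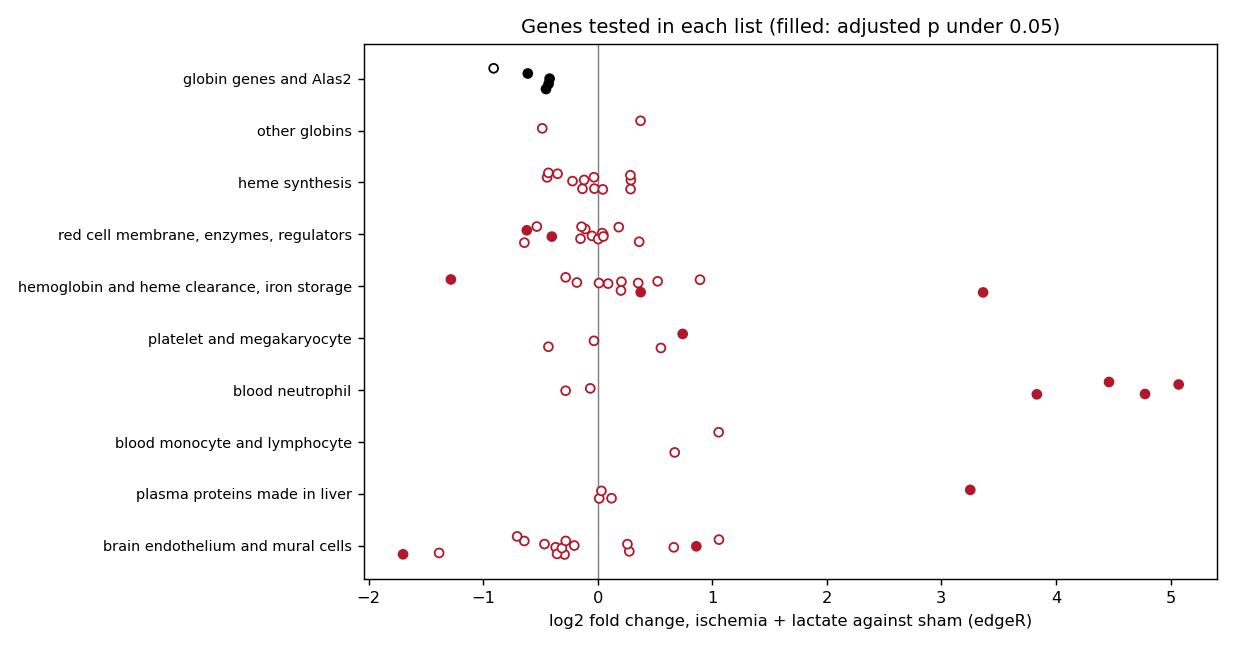
log2 fold change of ischemia + lactate against sham (x axis, edgeR, 4 against 4 mice) for the tested genes of each list (y axis). Each point is a gene, and filled points passed an adjusted p of 0.05. All 4 globin genes are filled to the left of 0, 0 of 12 heme synthesis genes are filled, and the 4 filled neutrophil genes passed the filter on low counts through the lactate mice. Hmox1, Slc40a1 and Ttr also passed it only with the help of the group where they were high.

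Among genes whose longest annotated coding transcript is 500 to 750 nt, without the 5 genes, the median log2 fold change was -0.07 over 225 genes with vehicle, with 0 called lower and 4 higher. With lactate it was -0.07 over 227 genes, with 12 called lower and 22 higher. Over all genes, 0.182% were called lower and 1.29% higher with vehicle, and 3.55% and 8.76% with lactate. The medians over all genes were 0.00 and -0.03.

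The genes whose levels followed the summed globin level most closely over the 12 mice were found by Pearson's r of log2(CPM + 1) among 13523 genes, as a description of mice that share groups and libraries. Hba-a1, Hba-a2, Hbb-bs and Hbb-bt, which make up the sum, were at 0.995, 0.997, 0.982 and 0.969, and Alas2 at 0.55. The 10 genes most alike outside the globins were Rlbp1 (r = 0.957), Fam180a, Atp5g2, Fcgrt, Smim18, Gsdme, Atg10, Arhgap15, Itm2a and P2ry12 (0.910). Rlbp1, a retinoid-binding protein, averaged 18.04 CPM in sham, 11.1 with vehicle and 10.98 with lactate, and P2ry12, a receptor of microglia, 45.8, 22.2 and 20.9 CPM. P2ry12 fell in both comparisons with sham. After each mouse was set relative to the mean of its group, the 10 genes were Prmt7 (r = 0.934), Selenoh, Emg1, Timm17b, Lrba, Tcn2, Gsdme, Bnip3, Tmx2 and Elof1 (0.894). Gsdme, gasdermin E, was on both lists. Alas2 stood at 0.34 after centring, so within groups the mice with more globin reads were not reliably those with more Alas2 reads, at 3 to 16 counts.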

How the data were processed

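Brain RNA of 12 mice was examined. The authors made full-length cDNA by PCR, sequenced it on nanopores, removed ribosomal RNA and reads under 500 bp or a quality score of 7, mapped full-length non-chimeric reads with minimap2, polished with pinfish and compared with known transcripts by gffcompare. The build was GRCm38 and DESeq 1.10.1 is listed, per the submitters' processing notes, and how reads were counted per gene is not given in the sources used here. The authors deposited raw counts per gene without normalization, and CPM values, each count divided by the library total. They also deposited P values and fold changes of their own comparisons, which were not used. From the counts, 4 lines without a gene were left out, and 0 per-sample columns.

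Groups were compared with edgeR 4.0.16 in R 4.3.3 (quasi-likelihood test, TMM, genes at 1 CPM or more in at least 4 of 8 mice, 2 groups per fit, Benjamini-Hochberg adjustment over all genes, threshold 0.05). Single genes were also tested by exact permutation of log2(CPM + 1), with a pseudocount of 1, over all 70 splits of the 8 mice, in numpy 2.4.6. On simulated data of ischemia + vehicle against sham (17019 genes), 121 of 200 changed genes were recovered with 6 false calls. Alternatives were DESeq2 1.42.0, other size factors, globin counts left out of totals, no filter, 1 fit of all mice, a replicate block, another call rule and leaving out mice. Replicates are separate mice. Total counts were 6815920 to 10677224.

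The genes and lists were chosen with earlier results of these data known. Named were the 5 genes, the genes of each list called in any comparison (at most 6, by adjusted p), for lists without calls up to 2 genes of highest mean CPM, and the 10 genes most like the globin sum. Some listed red cell markers are not reported here. Sequences and positions are from GENCODE M21 and RefSeq (GRCm38.p6), in which all 5 genes matched.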

Additional observations from a re-analysis of the deposited data

Results flagged for a closer look

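Sham mouse 1 stood apart from its group in Hba-a1, at 194.8 CPM against 170 to 172 CPM in the other 3 sham mice. The gap to its nearest neighbour was 0.889 of the range of the group, above Dixon's 95% critical value for 4 values. Of 27 groups of 4 values checked this way, 1 exceeded the limit, and chance exceeds it in about 1 of 20. The same mouse was highest in sham for Hba-a2 (205 CPM) but not for Hbb-bs, where sham mouse 2 was higher (190 against 187 CPM), nor for Hbb-bt. Without it, the log2 fold change of Hba-a1 with lactate was -0.39.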

How the results depend on the processing

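With vehicle against sham, 0 of the 5 genes were called under all alternatives but DESeq2's Wald test and the rule of an unadjusted p under 0.05 with a fold change of at least 1.5, which called 1 each. With lactate against sham, 4 were called, and 1 in a single fit of all 12 mice, 2 by the unadjusted rule, and 1 to 4 when each mouse was left out (1 without lactate mouse 3, 2 without sham mouse 1 or lactate mouse 4). The 2 of the unadjusted rule include Alas2, which passed the filter only through the sham mice. Leaving out ischemia + vehicle mice 1 and 2 was chosen after seeing the data. The globin genes were lower than sham in all fits. With lactate against vehicle, 0 were called throughout, and differences near 0 changed sign. Hba-a1 was 0.00095 with DESeq2, 0.00080 with RLE factors, 0.0129 with library totals alone, 0.0155 in the fit of 12 mice and 0.0150 on the log2(CPM + 1) scale. Hbb-bt was 0.00450, 0.00403, 0.0168, 0.0191 and 0.0151 in the same order, and 0.0151 without vehicle mice 1 and 2. Hba-a2 was 0.00025 in the fit of 12 mice and 0.00126 on the log2(CPM + 1) scale. Leaving out each mouse gave -0.113 to 0.0729 for Hba-a1, -0.133 to 0.0653 for Hba-a2, -0.128 to 0.0725 for Hbb-bs and -0.122 to 0.0913 for Hbb-bt. Alas2 with vehicle against sham was -0.506 to 0.0528, and 0.00581 without vehicle mice 1 and 2. Alas2 with lactate against vehicle could not be fitted where it fell under the filter on low counts, which left 4 of the 8 fits that leave out a mouse. The cause of these changes was not tested.

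Mouse numbers name different animals. With the number as a replicate block, 0, 4 and 0 genes were called in the 3 comparisons, and Hbb-bt with lactate against sham was -0.62. Deviations of same-numbered mice correlated at -0.148 to 0.158, so the mice were not treated as paired. Depth limits Alas2, at 3 to 16 counts, and Slc4a1 and Hemgn, at 0 or 1 count.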
